A study of Mus musculus with 514 samples.

Results

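The 10 genes described here were grouped as core genes of autophagy. They encode the 4 Atg4 proteases Atg4a, Atg4b, Atg4c and Atg4d, the conjugation factors Atg5, Atg7 and Atg16l1, and Atg16l2, the paralog of Atg16l1. The others encode the lipid kinase subunit Becn1, and Gabarapl2, a member of the Atg8 family. All 10 were taken by gene symbol from the 55168 named genes of the full-length expression table. Autophagy encloses cytoplasm in a double membrane that is delivered to the lysosome for degradation. Becn1 belongs to the kinase complex that marks the membrane on which this vesicle forms. Atg7 activates the ubiquitin-like proteins Atg12 and Atg8, Atg12 is joined to Atg5, and the joined pair binds Atg16l1 and couples Atg8 proteins such as Gabarapl2 to lipid. Atg4 proteases trim Atg8 proteins before this coupling and release them from lipid afterwards. In the mouse, autophagy is switched on after fertilisation, and embryos lacking both maternal and zygotic Atg5 stop before the blastocyst.

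Single mouse oocytes and preimplantation embryos were profiled by RNA-seq of polyadenylated RNA, after loss of the nuclear receptors Nr5a2, Esrrb or both. The stages run from the MII oocyte (OoMII) through the early (E2C) and late (L2C) 2-cell embryo to the embryo of 4 cells (4C) and of 8 cells (8C). NrKO lacks Nr5a2, EKO lacks Esrrb and DKO lacks both, with mz for loss from mother and embryo, m for loss from the mother and z for loss from the embryo. Controls at L2C, 4C and 8C were mz_DHet, heterozygous for both genes per the file headers, and z_NrHet at L2C. Oocytes and E2C embryos had controls heterozygous for Nr5a2 (NrHet and mz_NrHet) and controls with wild-type or floxed alleles (Nrpp and mz_Nrpp). Mutant embryos were therefore compared with heterozygous embryos and not with wild-type ones. The labels give neither the deleted exons, nor the Cre driver, nor the mother or litter of an embryo, so the p-values here reflect variation among embryos that may include siblings.

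Full-length libraries numbered 39 at OoMII (9 Nrpp, 18 NrHet, 12 NrKO) and 102 at E2C (21 mz_Nrpp, 29 mz_NrHet, 22 mz_NrKO, 18 m_NrKO, 12 z_NrKO). At L2C there were 7 mz_DHet, 10 mz_EKO, 10 mz_NrKO, 6 mz_DKO, 7 z_NrHet and 6 z_NrKO embryos. The 4C stage had 6 mz_DHet, 4 mz_EKO, 5 mz_NrKO and 10 mz_DKO embryos, and the 8C stage 21 mz_DHet and 10 of each mutant. Levels are length-scaled transcript shares (TPM), which are scaled by transcript length, so that genes can be compared with each other, and which keep no read counts, so that depth is unknown. Effects are differences of log2(TPM + 1) ± SE from limma, with the date in the labels as a factor in comparisons within a stage, and a gene is called at a Benjamini-Hochberg adjusted p under 0.05 over all genes tested at that stage.

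A full-length library listed 10655 to 15971 genes above 1 TPM. Reads were still assigned to both targeted genes after their deletion: at 8C Nr5a2 stood at 472 ± 144 TPM in mz_DHet, 597 ± 241 in mz_NrKO and 778 ± 174 in mz_DKO, and Esrrb at 47.8 ± 15.5 TPM in mz_DHet, 18.0 ± 8.15 in mz_EKO and 26.8 ± 10.7 in mz_DKO (SD). Values per gene cannot show whether the targeted exons were lost. In the full-length reads, replicate 1 of 8C mz_NrKO stood apart from the other 9 embryos in 3 of the autophagy genes. It had Esrrb at 8.47 TPM and was the only embryo of its group dated 23 February 2022. Replicate 1 of E2C mz_NrKO listed Esrrb at 1253 TPM, against a group median of 14.7. Results are given with and without these embryos where they move. Because a library holds a whole embryo, a change in all of its cells and a change in some of them cannot be told apart.

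The members lie on 9 chromosomes of the mm10 assembly, all annotated as protein-coding genes. Atg4b (chr1:93751500-93790610) and Atg16l1 (chr1:87755870-87792428) share chromosome 1 with Nr5a2, at distances of 43.1 Mb and 49.1 Mb. Atg16l2 (chr7:101263034-101302251, minus strand), Gabarapl2 (chr8:111940703-111953612) and Atg7 (chr6:114643097-114860614) are the other members that changed at 8C. Exons of Atg16l2, Atg4d and Becn1 overlap those of a gene on the opposite strand, Fchsd2, Kri1 and Cntd1 respectively. Whether counting used strand is not given in the sources used here, so reads from the bases that such a pair shares may have been counted for either gene.

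The bases before a RefSeq transcription start are shown for the 4 members that fell at 8C, and for Atg4a, which held the longest motif match. Nr5a2 and Esrrb are both known to bind a nuclear receptor half-site with a short extension at its start, written AAGGTCA, which contains the plain half-site AGGTCA. Both were searched on both strands in the 300-base windows of RefSeq starts (GRCm38.p6), which matched 8 of the 10 members in 10 windows. The runs below hold the part of each window before the start that lies in no annotated exon, 5′ to 3′ on the gene's strand, with motif matches in capitals.
Atg4b (chr1:93754865-93754904): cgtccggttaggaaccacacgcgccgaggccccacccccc
Atg16l2 (chr7:101302252-101302338): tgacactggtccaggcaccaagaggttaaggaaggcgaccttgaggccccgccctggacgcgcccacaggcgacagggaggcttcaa
Gabarapl2 (chr8:111940453-111940702): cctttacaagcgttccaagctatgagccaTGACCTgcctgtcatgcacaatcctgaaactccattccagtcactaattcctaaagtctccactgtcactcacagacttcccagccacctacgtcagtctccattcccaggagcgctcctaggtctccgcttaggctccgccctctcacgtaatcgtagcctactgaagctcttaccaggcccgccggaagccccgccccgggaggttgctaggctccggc
Atg7 (chr6:114670846-114671095): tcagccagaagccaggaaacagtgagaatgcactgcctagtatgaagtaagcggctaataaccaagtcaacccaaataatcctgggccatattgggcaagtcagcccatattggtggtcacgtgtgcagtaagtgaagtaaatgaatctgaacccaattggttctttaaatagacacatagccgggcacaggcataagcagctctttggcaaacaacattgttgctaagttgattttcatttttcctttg
Atg4a (chrX:140953595-140953799): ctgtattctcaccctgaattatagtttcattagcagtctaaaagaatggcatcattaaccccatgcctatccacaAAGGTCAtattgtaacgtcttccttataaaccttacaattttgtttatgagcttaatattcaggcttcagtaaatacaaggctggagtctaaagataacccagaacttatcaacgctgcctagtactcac
AAGGTCA was found in 1 of the 10 windows, 1 of the 2 windows of Atg4a, starting 175 bases before the RefSeq start. That window begins at chrX:140953595, before the annotated gene start at chrX:140956907. The other Atg4a window (chrX:140956657-140956956), which holds the annotated gene start, had neither motif. Over all 32851 windows of the same length it was found in 4.72%. AGGTCA was found in the Atg4a window with AAGGTCA and in the one of Gabarapl2, where it reads TGACCT on the gene's strand and starts 221 bases before the start. Its share over all windows was 16.3%. Neither motif was found in the windows of Atg4b, Atg16l2 and Atg7. Those of Atg4b and Atg7 lie inside the annotated genes, which begin at chr1:93751500 and chr6:114643097. The bases before these gene starts were not searched. These are letters in a short window, and the data hold no measure of binding there.

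In control development the makeup of the Atg4 proteases changed. Controls in this account of the stages are NrHet oocytes, mz_NrHet at E2C and mz_DHet from L2C onward. The oocyte held mostly Atg4a and Atg4b, Atg4a was almost lost by L2C, and Atg4b rose at each of 3 steps to become the main Atg4 transcript. Atg4d was near 0 until E2C and rose at L2C and again at 8C. In controls Atg4b made up 42.9% ± 8.87 of the summed Atg4 TPM in 18 NrHet oocytes, 71.1% ± 9.54 at E2C (29 mz_NrHet), 92.8% ± 4.18 at L2C (7 mz_DHet), 91.7% ± 4.77 at 4C (6) and 84.4% ± 5.75 at 8C (21). Atg4a made up 55.8% ± 8.82 in the oocyte and 0.481% ± 0.407 at 8C. Atg4d, the other Atg4 gene with a clear level at 8C, made up 15.0% ± 5.59 there.

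**Figure D1:**
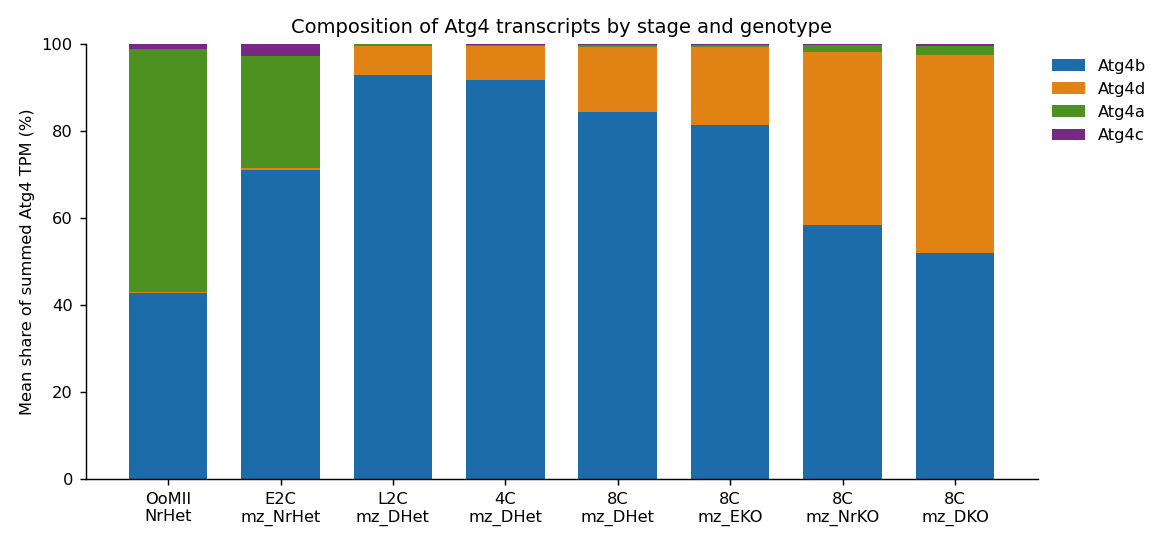
Mean share of each of the 4 Atg4 genes in their summed TPM (vertical axis, percent), for the controls of 5 stages and the 3 mutant groups at 8C. Atg4b takes 84.4% in 8C controls, 81.3% in mz_EKO, 58.4% in mz_NrKO and 51.9% in mz_DKO.

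Atg4b, the protease with the broadest action on Atg8 proteins, had a median of 19.8 TPM in oocytes (9.96 to 39.4), 92.4 at E2C (42.4 to 136), 321 at L2C (268 to 431), 341 at 4C (249 to 491) and 775 at 8C (285 to 1027). The control groups of oocyte, E2C and L2C did not overlap, whereas L2C and 4C covered nearly the same range. Its log2 level rose by 2.11 ± 0.13 from oocyte to E2C (limma adjusted p = 2.11e-30), by 1.92 ± 0.18 to L2C (adjusted p = 6.22e-18) and by 1.04 ± 0.20 from 4C to 8C (adjusted p = 4.19e-06). Atg4a, which acts mainly on the Gabarap branch of the Atg8 family, had a median of 27.0 TPM in oocytes and 37.1 at E2C, then 0.893 at L2C, 0 at 4C and 3.23 at 8C, with 5 of the 6 control embryos at 4C listed at 0. It fell from E2C mz_NrHet to L2C mz_DHet without overlap, by a log2 difference of -3.92 ± 0.34 (adjusted p = 1.54e-20). In the other L2C control, z_NrHet, the Atg4a median was 7.12 TPM (0 to 12.9), and its highest value lay above the lowest of mz_NrHet at E2C (11.0). Atg4d had a median of 0 TPM in oocytes, 0.362 at E2C, 20.4 at L2C (7.05 to 66.5), 27.7 at 4C (7.46 to 57.7) and 137 at 8C (50.9 to 232). It rose by 3.87 ± 0.29 from E2C to L2C (adjusted p = 3.07e-24) and by 2.21 ± 0.32 from 4C to 8C (adjusted p = 1.84e-09), and no L2C control was as low as any E2C control. Atg4c, the remaining protease, was below 5 TPM in every group mean, with means of 3.26 ± 3.31 TPM (n = 29) in mz_NrHet at E2C and 1.34 ± 0.892 TPM (n = 21) in mz_DHet at 8C.

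Gabarapl2, a substrate of these proteases, had the highest level of the 10 genes from L2C onward. Its median was 17.6 TPM in oocytes (6.40 to 29.2), 25.8 at E2C (9.76 to 111), 999 at L2C (679 to 1525), 1108 at 4C (915 to 1251) and 2843 at 8C (2120 to 6362). The step from E2C to L2C was the largest of any member, 5.29 ± 0.24 on the log2 scale (limma adjusted p = 6.05e-42), and the lowest L2C control stood above the highest E2C control. A further rise of 1.53 ± 0.26 followed from 4C to 8C (adjusted p = 2.41e-07). The 8C control range held separate dates: the 4 embryos of 15 July 2022 stood at 5655 to 6362 TPM and the 15 of 8 March 2022 at 2120 to 3342.

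Atg5 and Atg7 moved in opposite directions at L2C. Atg5, whose product is joined to Atg12, had a median of 223 TPM in oocytes (128 to 302), 393 at E2C (272 to 499), 73.2 at L2C (53.6 to 111), 51.0 at 4C (42.9 to 73.5) and 39.2 at 8C (27.2 to 106). It rose by 0.87 ± 0.11 to E2C (limma adjusted p = 3.62e-11) and fell to L2C (-2.37 ± 0.16, adjusted p = 1.38e-27), where no control embryo reached the lowest E2C value. Atg7, the activating enzyme, ran the other way, with medians of 22.8 TPM in oocytes, 28.9 at E2C, 117 at L2C (83.7 to 160), 97.0 at 4C (70.1 to 153) and 203 at 8C (56.0 to 290). It rose by 1.93 ± 0.24 at L2C (adjusted p = 3.63e-12) and by 0.87 ± 0.27 from 4C to 8C (adjusted p = 0.00354).

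The Atg16l paralogs followed different courses, with Atg16l1 the larger of the pair on average at every stage. Atg16l1, which places the Atg12-Atg5 pair on the membrane, had a median of 408 TPM in oocytes (230 to 632), 51.5 at E2C (15.98 to 95.1), 109 at L2C (69.1 to 211), 136 at 4C (107 to 244) and 52.4 at 8C (20.8 to 70.7). It fell from oocyte to E2C without overlap (-3.12 ± 0.15, limma adjusted p = 3.24e-40), rose by 1.27 ± 0.21 at L2C (adjusted p = 2.59e-08) and fell from 4C to 8C, again without overlap (-1.83 ± 0.23, adjusted p = 7.45e-12). Atg16l2, its paralog, had a median of 0 TPM in oocytes and at E2C, with 17 of 29 E2C controls listed at 0. It reached 16.9 at L2C (12.3 to 74.2), 7.79 at 4C (3.45 to 21.5) and 22.2 at 8C (6.80 to 68.3), a rise of 3.88 ± 0.48 from E2C to L2C (adjusted p = 1.98e-12). The share of Atg16l2 in the summed TPM of the pair was 0.212% ± 0.392 in oocytes, 21.5% ± 18.8 at L2C and 35.2% ± 11.1 at 8C. Becn1 was highest in oocytes, at a median of 381 TPM (307 to 488), and then stood at 181 at E2C, 123 at L2C, 148 at 4C and finally 73.4 at 8C (27.5 to 116). It fell from oocyte to E2C (-1.09 ± 0.12, adjusted p = 7.54e-15), to L2C (-0.59 ± 0.17, adjusted p = 0.000953) and from 4C to 8C (-1.05 ± 0.18, adjusted p = 3.81e-07).

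**Figure D2:**
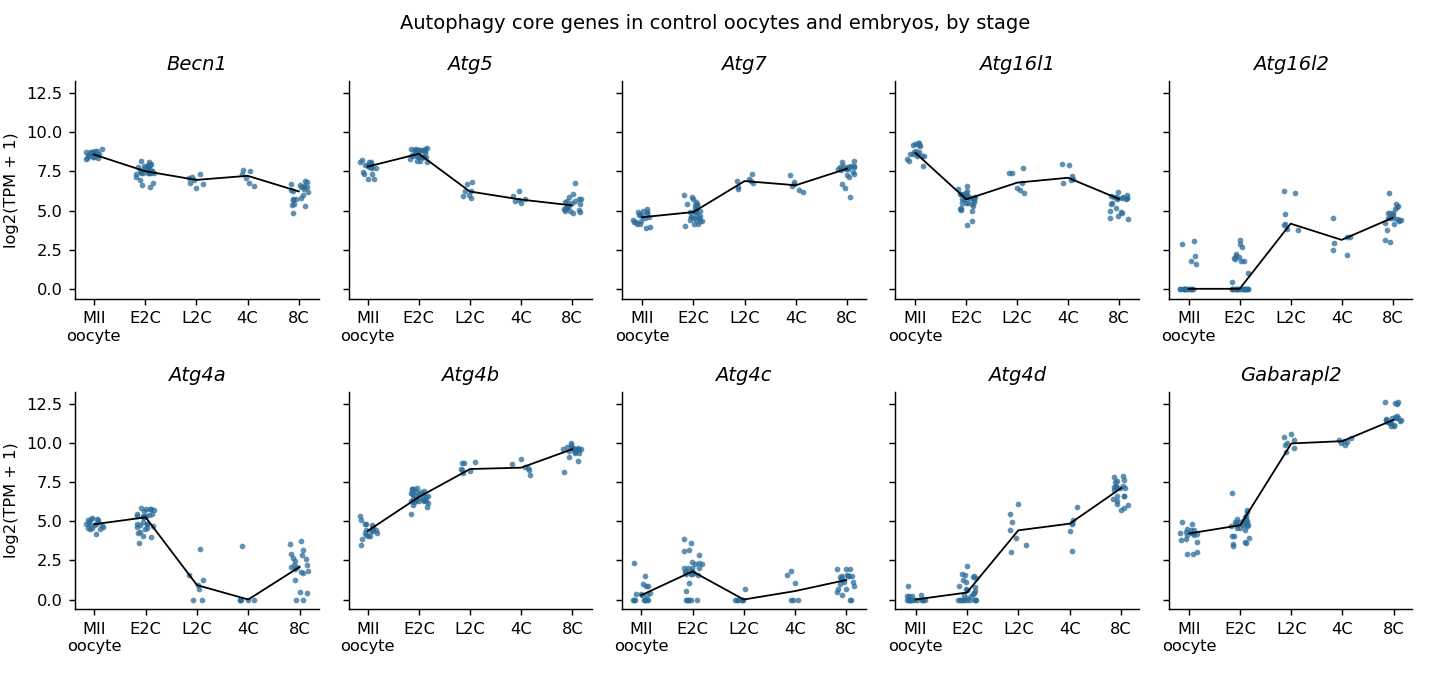
Level of each of the 10 genes (vertical axis, log2(TPM + 1)) in every control library of the 5 stages (horizontal axis), with 1 point per library and a line at the median. Gabarapl2, Atg4b, Atg4d and Atg7 end higher at 8C than in the oocyte, whereas Atg16l1, Atg5, Becn1 and Atg4a end lower.

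Counted over the steps in controls, with limma, all 10 members were tested. From oocyte to E2C, 2 fell and 6 rose, against 15.7% and 45.8% of all 16852 genes tested. From E2C to L2C all 10 were called: Atg4a, Atg5, Atg4c and Becn1 fell and the other 6 rose, against 40.3% and 35.6% of all genes. From L2C to 4C none was called, against 11.5% of all genes in either direction, and 2 members had an unadjusted p under 0.05. From 4C to 8C, 2 fell and 6 rose, against 37.6% and 16.7%, and from L2C to 8C, 3 fell and 6 rose, against 42.3% and 19.1%. The median log2 difference of the members was 0.44, 1.59, 0.04, 0.95 and 0.78 in these 5 comparisons, and that of all genes 0.42, -0.17, -0.07, -0.36 and -0.47. Median-of-ratios scaling shifted the all-gene median to 0.21, -0.02, -0.06, -0.09 and -0.19. With it the calls of Atg7, Atg4d and Gabarapl2 from oocyte to E2C were lost, and so were those of Atg5 and Becn1 from L2C to 8C. Over all genes it moved the split of lower and higher calls from 2652 and 7719 to 3789 and 6258 for oocyte to E2C, from 6338 and 2818 to 4975 and 4169 for 4C to 8C, and from 7129 and 3211 to 5831 and 4568 for L2C to 8C. Stage and date cannot be told apart in most of these steps. L2C and 8C share 8 March 2022, with 2 and 15 controls, and within that date all calls between L2C and 8C held except that of Atg4a (0.71, adjusted p = 0.23).

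At 8C, loss of Nr5a2 went with lower Atg4b, the main Atg4 protease, and lower Atg16l2, each by over 2 on the log2 scale, and with smaller falls of Gabarapl2 and Atg7. Loss of Nr5a2 together with Esrrb gave lower Atg4b, Atg16l2 and Gabarapl2. After loss of Esrrb alone no member was called. In mz_NrKO 4 of the 9 members tested fell and none rose, against 14.2% of all 10876 genes tested that fell. In mz_DKO 3 fell and none rose, against 14.8%. The members' median log2 change was -0.40 in mz_NrKO and -0.13 in mz_DKO, where the median over all genes was 0.00 and 0.05. Both mutants were compared with the same mz_DHet controls.

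Atg4b had a median of 775 TPM in the 21 controls (285 to 1027), 158 in mz_NrKO (47.7 to 747) and 150 in mz_DKO (108 to 270). All 10 mz_DKO embryos and 8 of 10 mz_NrKO embryos lay below the lowest control, and the highest mz_NrKO value, 747 TPM, was that of replicate 1. The fall was -2.07 ± 0.22 in mz_NrKO (limma adjusted p = 5.64e-10) and -2.11 ± 0.22 in mz_DKO (adjusted p = 1.34e-10). On 8 March 2022 alone, 6 mz_NrKO embryos stood at 47.7 to 246 TPM, 9 mz_DKO embryos at 108 to 270 and 15 controls at 466 to 932, with no overlap. On 15 July 2022, 3 mz_NrKO embryos at 124 to 330 TPM also lay below 4 controls at 548 to 1027. The pattern differed on 23 February 2022, when mz_NrKO replicate 1 lay between 2 controls at 285 and 789 TPM. Without mz_NrKO replicate 1 the fall in mz_NrKO was -2.36 ± 0.19 (adjusted p = 3.27e-14).

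Atg16l2 had a median of 22.2 TPM in controls (6.80 to 68.3), 2.87 in mz_NrKO (0 to 40.2) and 0.996 in mz_DKO (0 to 6.01). The mz_DKO embryos did not overlap the controls, 8 of 10 mz_NrKO embryos lay below every control, and replicate 1 again held the highest mz_NrKO value, above both controls of its date (6.80 and 12.5 TPM). The changes were -2.70 ± 0.42 (limma adjusted p = 1.84e-06) and -3.39 ± 0.42 (adjusted p = 8.93e-09), and without replicate 1 the former was -3.24 ± 0.36 (adjusted p = 7.77e-10). Because 2 mz_NrKO and 4 mz_DKO embryos were listed at 0, the size of these changes depends on the pseudocount, and with 5 TPM in place of 1 they were -1.66 and -2.08. Its paralog Atg16l1 had no called change (0.00 ± 0.18 in mz_NrKO, 0.26 ± 0.18 in mz_DKO).

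Gabarapl2 had a median of 2843 TPM in controls, 2414 in mz_NrKO (1358 to 5178) and 1691 in mz_DKO (1530 to 2448). In mz_DKO 9 of 10 embryos lay below every control, whereas in mz_NrKO 5 did and 4 lay above the control median. The fall was -0.63 ± 0.11 in mz_DKO (limma adjusted p = 8.3e-06) and -0.47 ± 0.11 in mz_NrKO (adjusted p = 0.000757). The latter rests on the comparison within dates: on 15 July 2022, 3 mz_NrKO embryos at 2778 to 5178 TPM stood below 4 controls at 5655 to 6362, and without the date factor it was -0.35 (adjusted p = 0.145). Atg7 had a median of 203 TPM in controls (56.0 to 290), 111 in mz_NrKO (60.3 to 211) and 170 in mz_DKO (88.0 to 226). All these groups overlapped, and 9 of 10 mz_NrKO embryos were below the control median. The change was called in mz_NrKO (-0.52 ± 0.14, adjusted p = 0.00465) and not in mz_DKO (-0.31 ± 0.15, adjusted p = 0.094), and between both mutants it was 0.21 ± 0.17 (adjusted p = 0.735).

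**Figure D3:**
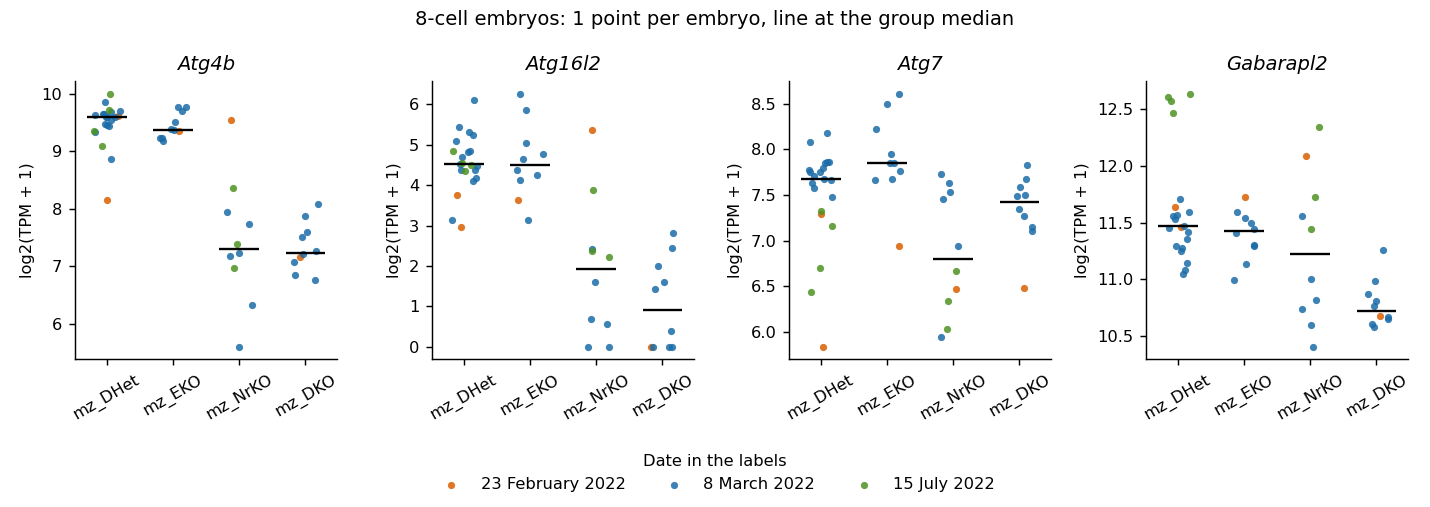
Level of Atg4b, Atg16l2, Atg7 and Gabarapl2 (vertical axis, log2(TPM + 1)) in each 8C embryo by genotype, coloured by the date in the labels, with a line at the group median. In mz_NrKO the embryo of 23 February 2022 is the highest for Atg4b (747 TPM) and Atg16l2 (40.2 TPM), and the 10 mz_DKO embryos lie below every control for both genes.

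The other 5 members tested at 8C had no called change in either mutant lacking Nr5a2. Atg5 had a median of 39.2 TPM in controls, 30.9 in mz_NrKO (16.3 to 90.1) and 40.4 in mz_DKO, a log2 difference of -0.40 ± 0.17 in mz_NrKO (limma adjusted p = 0.0743). Without mz_NrKO replicate 1, which held the 90.1 TPM, the difference was -0.49 ± 0.18 and was called (adjusted p = 0.0294). Becn1 had a median of 73.4 TPM in controls, 57.3 in mz_NrKO and 103 in mz_DKO (63.5 to 175), with a difference of 0.39 ± 0.17 in mz_DKO (adjusted p = 0.0782). Atg4d had a median of 137 TPM in controls, 103 in mz_NrKO (52.6 to 199.95) and 150 in mz_DKO (94.0 to 216), with log2 differences of 0.00 ± 0.17 and 0.09 ± 0.17 and overlapping groups. Its opposite-strand neighbour Kri1 rose by 0.75 ± 0.22 in mz_NrKO (adjusted p = 0.00804) and by 0.93 ± 0.22 in mz_DKO (adjusted p = 0.000829). Atg4a gave 0.23 ± 0.43 and 0.25 ± 0.44, and Atg4c did not pass the filter at 8C, with group means of 1.295 to 1.41 TPM.

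With Atg4b lower and no called change of Atg4d, the makeup of the protease transcripts differed between genotypes. The summed Atg4 level was 870 ± 177 TPM in controls, 872 ± 137 in mz_EKO, 350 ± 199 in mz_NrKO and 324 ± 85.9 in mz_DKO (SD). Atg4d made up 15.0% ± 5.59 of it in controls, 39.8% ± 17.9 in mz_NrKO and 45.7% ± 6.21 in mz_DKO. The share of Atg16l2 in the Atg16l pair was 35.2% ± 11.1 in controls, 35.2% ± 14.0 in mz_EKO, 13.1% ± 19.0 in mz_NrKO and 2.85% ± 3.53 in mz_DKO. Without mz_NrKO replicate 1, which had the highest share of its group at 52.2%, the mz_NrKO share was 8.71% ± 13.9 (n = 9). Without that embryo the summed Atg4 level in mz_NrKO was 296 ± 110 TPM, and Atg4d made up 43.3% ± 15.2 of it.

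In mz_EKO at 8C no member was called, none had an unadjusted p under 0.05, and log2 differences ran from -0.11 to 0.35, where limma called 0.00919% of all genes. Atg4b there had a median of 666 TPM (579 to 873; 0.00 ± 0.22) and Atg16l2 one of 21.9 TPM (7.77 to 75.9; 0.15 ± 0.42). The mutants were also compared with each other. Between mz_DKO and mz_NrKO no member was called or had an unadjusted p under 0.05, with differences from -0.69 ± 0.50 for Atg16l2 to 0.34 ± 0.20 for Becn1, against 0.147% of all genes. Between mz_NrKO and mz_EKO the same 4 members were lower as between mz_NrKO and controls: Atg4b by -2.07 ± 0.26, Atg16l2 by -2.85 ± 0.50, Atg7 by -0.77 ± 0.17 and Gabarapl2 by -0.44 ± 0.13 (adjusted p = 8.52e-08, 2.91e-05, 0.000862 and 0.0109), against 22.7% of all genes called in either direction. No mz_EKO embryo was dated 15 July 2022, and without the date factor the Gabarapl2 difference was -0.12 (adjusted p = 0.703). Between mz_DKO and mz_EKO those 4 were also lower, with differences of -2.11 ± 0.25, -3.55 ± 0.48, -0.56 ± 0.17 and -0.60 ± 0.13 (adjusted p = 5.79e-09, 9e-08, 0.00798 and 0.000169), against 30.2%.

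**Figure D4:**
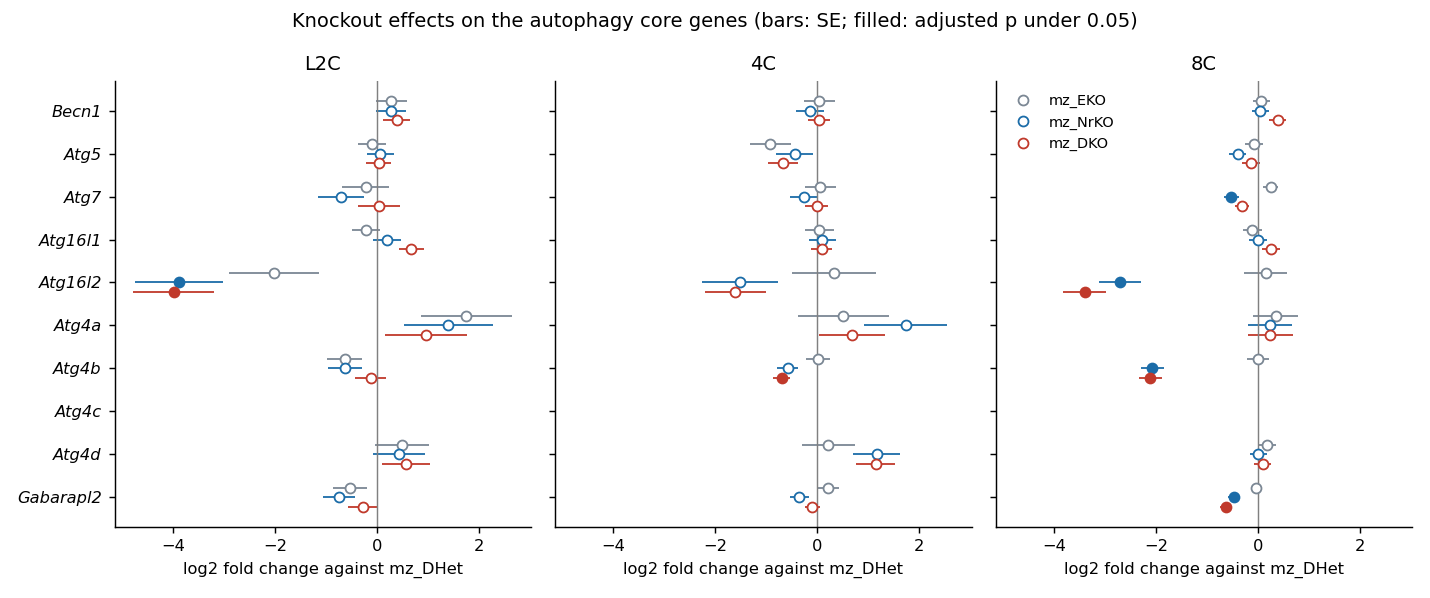
Log2 fold change (horizontal axis, ± SE) of each gene in mz_EKO, mz_NrKO and mz_DKO against mz_DHet, with 1 panel each for L2C, 4C and 8C. Filled points are called at an adjusted p under 0.05, and Atg4c, which did not pass the filter, has no point: the called points are Atg16l2 at L2C, Atg4b in mz_DKO at 4C, and Atg4b, Atg16l2, Gabarapl2 and, in mz_NrKO, Atg7 at 8C.

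Before 8C, Atg16l2 was called at L2C and not at 4C, and Atg4b was called at 4C in mz_DKO. At L2C Atg16l2 had a median of 16.9 TPM in the 7 controls (12.3 to 74.2), 0.541 in mz_NrKO (0 to 7.07), 1.08 in mz_DKO (0 to 1.89) and 6.42 in mz_EKO (1.02 to 39.6). All 10 mz_NrKO and all 6 mz_DKO embryos lay below every control, and so did 6 of the 10 mz_EKO embryos. It changed by -3.88 ± 0.86 in mz_NrKO (limma adjusted p = 0.0406) and -3.98 ± 0.79 in mz_DKO (adjusted p = 0.0119), and in mz_EKO the difference was -2.02 ± 0.88 (adjusted p = 0.734). With a pseudocount of 0.1 TPM these adjusted p were 0.125 and 0.0791, and on a single date, with only 2 embryos in 1 group, they were 0.462 and 0.299. Its overlapping neighbour Fchsd2 differed by 0.25 ± 0.32 and 0.19 ± 0.29 there. After zygotic loss alone, Atg16l2 had a median of 2.03 TPM in 6 z_NrKO embryos (0 to 5.44) and 13.0 in 7 z_NrHet embryos (0 to 34.0). The groups overlapped through 2 controls, at 0 and 2.91 TPM, all 6 z_NrKO embryos lay below the control median, and the difference of -1.87 ± 0.73 was not called (adjusted p = 0.43).

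Only Atg16l2 was called at L2C, where limma called 0.127% of all 14147 genes in mz_NrKO, 0.141% in mz_DKO, 0.099% in z_NrKO and 0% in mz_EKO. Atg4b at L2C had a median of 321 TPM in controls, 248 in mz_NrKO (84.5 to 364), 290 in mz_DKO (221 to 573) and 223 in mz_EKO (111 to 395), and none of these differences was called (adjusted p = 0.647, 0.963 and 0.747). Gabarapl2 in mz_NrKO had a median of 598 TPM (134 to 835) against 999 in controls, a difference of -0.74 ± 0.32 that was not called (adjusted p = 0.522). All 10 mz_NrKO embryos at L2C were dated 8 March 2022, as were only 2 of the 7 controls. Without the date factor Gabarapl2 and Atg7 were called lower there (-1.08 and -1.13, adjusted p = 0.00485 and 0.0273).

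At 4C Atg4b had a median of 341 TPM in 6 controls (249 to 491) and 214 in 10 mz_DKO embryos (145 to 287), 9 of which lay below every control. The fall was -0.70 ± 0.17 (limma adjusted p = 0.0228), and it was the only call among 9 members tested, against 2.58% of all genes. With no filter on low values, which adds genes to the adjustment, its adjusted p was 0.0537. The 5 mz_NrKO embryos stood at 166, 207, 284, 382 and 309 TPM, overlapping the controls, with a difference of -0.58 ± 0.21 that was not called (adjusted p = 0.237) and 0.675% of all genes called. Atg16l2 stood at 2.68, 2.69, 0, 0 and 1.53 TPM in these 5 embryos, all below the lowest control at 3.45, with a difference of -1.51 ± 0.74 (adjusted p = 0.446). In mz_DKO Atg16l2 had a median of 2.13 TPM (0 to 10.3; -1.61 ± 0.60, adjusted p = 0.188). Atg4d had a median of 57.3 TPM in mz_DKO (22.8 to 84.9) against 27.7 in controls, a difference of 1.14 ± 0.38 (adjusted p = 0.115), and stood at 50.8, 56.1, 52.0, 47.6 and 128 TPM in mz_NrKO (1.16 ± 0.47, adjusted p = 0.313). In the 4 mz_EKO embryos Atg4b stood at 410, 320, 542 and 376 TPM (0.01 ± 0.24), and limma called 0% of all genes. The unadjusted p was under 0.05 for 3 uncalled members in mz_NrKO, 3 in mz_DKO and 1 in mz_EKO.

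Whether the effect grew between stages was tested for each mutant as the effect at 8C minus that at L2C. Atg4b was the only member called: the difference was -1.45 ± 0.40 in mz_NrKO (limma adjusted p = 0.0355), against 1.79% of all 17686 genes, and -1.99 ± 0.38 in mz_DKO (adjusted p = 0.00025), against 5.41%. In mz_EKO it was 0.63 ± 0.41 (adjusted p = 0.722), with 0% of genes called. For Atg16l2 the difference was 1.18 ± 0.87 in mz_NrKO and 0.59 ± 0.82 in mz_DKO (adjusted p = 0.56 and 0.785), so a change of its effect between L2C and 8C was not detected. Without 8C mz_NrKO replicate 1 the Atg4b value was -1.74 (adjusted p = 0.00132). In the reads with molecular identifiers, it was -2.01 in mz_NrKO and -1.66 in mz_DKO and was not called (adjusted p = 0.0906 and 0.104).

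Before L2C no member was called in any knockout. At E2C, limma called 5.17% of all 13040 genes in mz_NrKO, 0.245% in m_NrKO and 0% in z_NrKO against mz_NrHet, and 0% between mz_NrKO and m_NrKO. The largest member difference in mz_NrKO was that of Atg7, with a median of 24.4 TPM (3.87 to 62.5) against 28.9 (15.3 to 63.7), or -0.60 ± 0.19 (adjusted p = 0.0503). Atg4b had a median of 123 TPM in mz_NrKO (21.5 to 174) and 92.4 in controls (0.27 ± 0.14, adjusted p = 0.261). It was called higher without mz_NrKO replicate 1, which held the lowest value (0.38 ± 0.12, adjusted p = 0.0375), and also after scaling by the median of ratios (0.36, adjusted p = 0.0361). The latter scaling moved the split of lower and higher genes from 587 and 87 to 556 and 363. In NrKO oocytes, 7 members were tested and differences ran from -0.45 for Gabarapl2 to 0.18 for Atg16l1, with 0.212% of all genes called. The unadjusted p was under 0.05 for 1 member in oocytes, 2 in mz_NrKO and 1 each in m_NrKO and z_NrKO at E2C.

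Reads with a unique molecular identifier, which start at the 5′ end of transcripts, give a second readout. Per the series' design text they come from the same libraries, so they are not further embryos. At 8C Atg4b had a median of 763 TPM in 16 controls, 150 in 5 mz_NrKO (17.3 to 199) and 152 in 9 mz_DKO (115 to 229), and of the controls only 1, at 35.8 TPM, did not lie above every embryo of both mutants. The change was -2.73 ± 0.44 (limma adjusted p = 1.73e-05) and -1.92 ± 0.36 (adjusted p = 5.02e-05). Atg16l2 changed by -3.16 ± 0.70 (adjusted p = 0.000822) and -3.55 ± 0.57 (adjusted p = 5.35e-06), and Gabarapl2 by -0.58 ± 0.10 (adjusted p = 3.91e-05) and -0.55 ± 0.08 (adjusted p = 1.24e-06). Gabarapl2 had a median of 2855 TPM in controls, 1814 in mz_NrKO and 1850 in mz_DKO by this readout. The 5 mz_NrKO libraries include 1 labelled replicate 1. In the full-length reads replicate 1 stood at 747 TPM for Atg4b, 40.2 for Atg16l2 and 8.47 for Esrrb. By this readout no mz_NrKO library exceeded 199 TPM for Atg4b or 17.1 for Atg16l2, and none was below 46.5 for Esrrb. The lowest Atg4b control was at 35.8 TPM here and at 285 TPM in the full-length reads. Why the readouts differ was not tested. Atg5 was called in mz_NrKO (-0.91 ± 0.29, adjusted p = 0.0189) and Atg7 was not (-0.27 ± 0.21, adjusted p = 0.363). These reads were analysed at L2C, 4C and 8C, and no member was called at L2C or 4C. The share of all genes called in these reads is not given here, so the calls are descriptions only.

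The authors' deposited table of their own comparisons, read at a false discovery rate under 0.1 and a 1.5-fold change, held Atg16l2 as lower in its 2-cell comparisons of mz_NrKO, mz_DKO and z_NrKO. In the authors' deposited table Atg16l2 had a log2 fold change of -3.74 in z_NrKO at L2C, with a false discovery rate of 0.0328. At 4C the authors' deposited table held Atg4b and Atg16l2 as lower in mz_NrKO and mz_DKO, and Atg4d as higher in mz_DKO (1.19). At 8C it held Atg4b and Atg16l2 as lower in both (Atg4b -1.99 in mz_NrKO and -2.17 in mz_DKO), and Gabarapl2 in mz_DKO (-0.63). No member passed in the authors' deposited table for mz_EKO at any stage, or for E2C embryos and oocytes, which it set against wild-type or floxed controls. The 1.5-fold threshold, which the limma calls do not use, left out Atg4b in mz_NrKO at E2C (0.45, false discovery rate 0.0121). At 8C it left out Atg7 in mz_NrKO (-0.49, 0.00454) and mz_DKO (-0.42, 0.0155). In mz_DKO it also left out Becn1 (0.41, 0.00117) and Atg16l1 (0.31, 0.0652).

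The other steps of the pathway were read from 8 lists of 63 genes, 60 of which had values and 56 of which were tested at 8C. In mz_NrKO 14 of the 56 fell and 2 rose, and in mz_DKO 11 fell and 5 rose. Of all genes tested, 14.2% fell and 14.1% rose in mz_NrKO, and 14.8% fell and 18.9% rose in mz_DKO. Their median log2 change was -0.21 and -0.20. None was called in mz_EKO or between mz_DKO and mz_NrKO. Stx17, the syntaxin that fuses the closed vesicle with the lysosome, had a median of 23.4 TPM in controls (2.39 to 36.2), 3.34 in mz_NrKO (0 to 20.5) and 1.62 in mz_DKO (0 to 14.7), a change of -2.48 ± 0.35 (limma adjusted p = 4.1e-07) and -2.69 ± 0.35 (adjusted p = 3.36e-08). Atg9a, the membrane protein of the vesicles that seed the autophagosome, had a median of 172 TPM in controls, 50.7 in mz_NrKO and 82.3 in mz_DKO (-1.67 ± 0.23 and -0.94 ± 0.23). Vmp1, a lipid scramblase needed for membrane growth, fell from a median of 852 TPM to 413 in mz_NrKO and 489 in mz_DKO (-1.01 ± 0.12 and -0.76 ± 0.12). Ctsd, a lysosomal protease, fell from 1007 TPM to 467 and 511 (-1.09 ± 0.14 and -1.04 ± 0.15). Ulk2, a kinase of the initiating complex, rose from a median of 2.22 TPM to 15.3 in mz_DKO (1.99 ± 0.32, adjusted p = 1.94e-06) and 4.82 in mz_NrKO (1.02 ± 0.31, adjusted p = 0.0115).

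By list, lipid supply and membrane growth had 3 of 8 tested genes lower in mz_NrKO and 4 in mz_DKO, and fusion with the lysosome had 2 of 5 lower in each. Lysosome genes had 3 of 9 lower in mz_NrKO and 2 in mz_DKO. Cargo receptors had 2 of 9 lower in mz_NrKO, and 1 lower and 1 higher in mz_DKO. The initiation complex had 1 of 5 lower in each, with 1 higher in mz_NrKO and 2 in mz_DKO. Of the other conjugation genes and Atg8 family 6 were tested: in mz_NrKO Gabarap fell and Atg10 rose, and in mz_DKO Atg3, the enzyme that passes Atg8 to lipid, rose (0.96 ± 0.24, limma adjusted p = 0.00139). These 3 genes are named after their values were seen. The kinase complex and its regulators had 1 of 7 lower in mz_NrKO and 1 higher in mz_DKO, and nutrient control had 1 of 7 lower in each. With 5 to 9 genes a list, 1 called gene is near the 14.2% and 14.8% of all genes that fell, so these counts are descriptions only. At 4C the called list genes were Vmp1 in mz_NrKO (-0.76 ± 0.17), and Sesn2 (-0.70), Ctsb (-0.96) and Vmp1 (-0.51) in mz_DKO. At E2C 4 of 56 fell and 5 rose in mz_NrKO, among them Lamp2 (-0.77) and Ddit4 (1.18), where 4.5% of all genes fell and 0.667% rose. At L2C none was called.

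Stage and cell type markers moved beside these changes at 8C. The summed TPM of 5 oocyte markers with values had a median of 18.5 in controls (4.19 to 59.5), 58.5 in mz_NrKO (10.7 to 150) and 93.8 in mz_DKO (21.0 to 148). The sum of 5 genes of the 2-cell burst had a median of 5.40 TPM in controls (0 to 39.9), 31.6 in mz_NrKO (2.29 to 144) and 88.2 in mz_DKO (8.63 to 344). The sum of 6 genes of the 8-cell stage and later had a median of 773 TPM in controls (57.3 to 1057), 365 in mz_NrKO (127 to 2167) and 294 in mz_DKO (87.3 to 712). These ranges overlapped widely. Of these genes, 1 of 5 tested was lower in mz_NrKO, 3 were lower in mz_DKO and Upp1 was higher in both. The only tested oocyte marker, Zp3, and the only tested 2-cell marker, Tdpoz3, were higher in both mutants (Zp3 1.36 and 2.27, Tdpoz3 2.11 and 2.85). Of the 8 cumulus and granulosa markers 5 to 6 were at 0 in every embryo of a group and their sum reached 2.97 TPM at most. The sum of 5 sperm markers reached 4.91 TPM, and that of 4 oviduct markers had medians of 6.57, 1.45 and 0.986 TPM in controls, mz_NrKO and mz_DKO. The sum of 5 blood markers reached 6.68 TPM in controls, 74.2 in mz_NrKO and 34.2 in mz_DKO. The part of these markers in the autophagy gene changes was not tested. At E2C, where no member was called, all 5 tested genes of the 2-cell burst were lower in mz_NrKO.

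The profile of each member over the 22 group means of log2(TPM + 1) was set against 12612 genes with at least 5 TPM in some group. As a description, the gene most alike was Rps3 for Gabarapl2 (Pearson r = 0.997), Rpl35 for Atg4d (0.991), Tbc1d19 for Atg5 (0.990), Isyna1 for Atg7 (0.984) and Tdp1 for Atg4a (0.983). It was Srsf4 for Becn1 (0.976), Drg2 for Atg4b (0.969), Mbtps1 for Atg16l1 (0.958) and Psme1 for Atg16l2 (0.936). Atg4c did not reach 5 TPM in any group mean and was not compared. Among the members the closest pair was Atg4d and Gabarapl2 (0.980), and Atg4d and Atg5 ran most strongly in opposite directions (-0.954). The group means share stages and libraries, so that these values mainly order the genes by their course over development.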

How the data were processed

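Single oocytes and embryos were sequenced with a protocol derived from FLASH-seq, and 263 full-length and 110 molecular-identifier libraries of 514 samples were used. Values are TPM per gene as deposited by the authors. Per the submitters' processing notes, cutadapt, STAR, RSEM and DESeq2 were used with mm10, in an order not given in the sources used here. TPM keeps no counts, so depth is unknown and count tests were not run. The authors' deposited table gives log2 fold changes and false discovery rates, which are adjusted p-values. In all, 30 full-length and 35 molecular-identifier columns had no match in the labels and were not used, as were 65 entries without a gene name.

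Groups came from the labels, and replicate numbers do not pair embryos (closing section). Here log2(TPM + 1), which understates changes of low genes, was fitted per stage with limma 3.58.1 in R 4.3.3 (empirical Bayes with a mean trend), with date as a factor, over genes with at least 5 TPM in as many libraries as the smallest group. Steps between control stages and stage differences were fitted over all groups concerned. Adjusted p-values are Benjamini-Hochberg over all genes tested. In simulated data each gene had its control mean and SD in every group, apart from the changes set in mz_NrKO. Changes of 1 and 2 (log2) were recovered for 59% and 96% of 100 genes each in the 8C mz_NrKO comparison (10876 genes). In the 4C one (13044 genes) the shares were 30% and 66%. The changed genes were drawn above a minimum control level, so lower genes were not covered. Real mz_NrKO embryos at 8C varied more than the simulated ones for Atg4b (225 ± 201 TPM, against 735 ± 159 in controls, SD).

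The members, the 8 pathway lists and the marker lists were chosen with earlier results of these data known. The text names the members, the targeted genes, at most 4 called list genes per comparison by adjusted p (given also in the other mutant of that stage), and for each member the gene with the most similar profile. Outside this rule, Gabarap, Atg10 and Atg3 were named after their values were seen, markers came from the marker lists, and genes overlapping a member were named for their position. Alternatives were pseudocounts of 0.1 and 5, no filter, median-of-ratios scaling, no date factor, single dates, other controls, the replicate number as a block, libraries left out, and the molecular-identifier reads.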

Additional observations from a re-analysis of the deposited data

Results flagged for a closer look

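In groups of 4 to 10 embryos or oocytes, 124 checks of a member for a single library far from the others found 14. In each of these the library was the highest of its group. For normally distributed values about 1 in 20 checks, or 6.2, would be found. TPM values near 0 are not so distributed, so the 14 are not shown to exceed chance. In 5 of the 14 the gene was Atg4a, near 0 in most libraries of these groups: it stood at 8.48 TPM in L2C mz_DHet replicate 1, at 14.5 in L2C mz_EKO replicate 9, at 12.3 in L2C mz_NrKO replicate 1, at 30.3 in L2C z_NrKO replicate 5 and at 9.48 in 4C mz_DHet replicate 2. In the full-length reads of 8C mz_NrKO, replicate 1 was the highest of its group for Atg4b (747 TPM), Atg5 (90.1 TPM) and Atg16l2 (40.2 TPM). In the molecular-identifier reads no mz_NrKO library reached these values of Atg4b or Atg16l2, though 1 bore that label. In 4C mz_NrKO, replicate 5 was the highest for Atg4d (128 TPM) and Atg7 (294 TPM). Atg7 also stood apart in Nrpp oocyte replicate 6 (80.7 TPM) and L2C z_NrHet replicate 4 (189 TPM). Atg16l2 stood apart in 4C mz_DHet replicate 3 (21.5 TPM), and Becn1 in 8C mz_DKO replicate 7 (175 TPM).

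The effect on Atg4b differed between stages: that at 8C minus that at L2C was -1.45 in mz_NrKO and -1.99 in mz_DKO by limma's test of the difference (adjusted p = 0.0355 and 0.00025). Both share the mz_DHet controls.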

How the results depend on the processing

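Of the 55 called member effects, 18 were knockout effects within a stage, and most of the others were steps between control stages. Of 336 alternative values for these 55 effects, 299 kept their direction and call, 34 kept their direction and lost the call, and 3 reversed. The 3 were steps from oocyte to E2C: Atg7 was -0.0045 with median-of-ratios scaling and -0.17 with other control groups, and Atg4d was -0.27 with the latter. Scaling left 5 members called at that step in place of 8. Molecular-identifier reads were used only for knockout effects and differences between stages, and there 13 kept the call and 7 lost it. With the replicate number as a block, used for the same effects, 15 kept the call and 5 lost it. From L2C to 4C, 1 was called with a pseudocount of 5 (Atg16l2) or with other control groups (Atg4a), in place of 0. At E2C, 1 was called in mz_NrKO, Atg4b, with scaling or without mz_NrKO replicate 1, in place of 0. At L2C, where 1 was called, 0 were called in mz_NrKO and in mz_DKO with a pseudocount of 0.1, within a single date or in molecular-identifier reads, and 0 in mz_NrKO without the filter. Without the date factor 3 were called in mz_NrKO. At 4C, 0 in place of 1 was called in mz_DKO without the filter and in molecular-identifier reads. In these reads 0 in place of 1 was called for the difference between stages in mz_NrKO and in mz_DKO. The cause was not tested. No 8C count moved by over 1.5 times, but the genes behind a count could change. In mz_NrKO at 8C, molecular-identifier reads called Atg5 and not Atg7, and Gabarapl2 was not called without the date factor. Leaving out each 4C mz_NrKO or mz_EKO embryo in turn left 0 members called, as with all embryos kept. A call is harder to reach with fewer embryos, so these fits do not show how stable that result is.

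Replicate numbers do not pair embryos: same-numbered embryos of a stage had deviations with a median correlation of 0.147 (OoMII), 0.021 (E2C), 0.00 (L2C), 0.0098 (4C) and 0.046 (8C). With the replicate number as a block, 0 in place of 1 was called in mz_NrKO at L2C, in mz_DKO at 4C and for the difference between stages in mz_NrKO. At 8C, 3 were called in mz_NrKO in place of 4, where Gabarapl2 was -0.40 (limma adjusted p = 0.0882), and 3 in mz_DKO. The fit without 8C mz_NrKO replicate 1 was chosen after seeing the data. Depth is unknown, and changes of genes near 0 TPM depend on the pseudocount.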
